A study of Mus musculus with 3 samples.

Results

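A small group of mesenchymal cells of the embryonic mouse cochlea carried transcripts of neuropeptide precursor genes: Penk together with Gal, Calca or both. The group was defined on raw UMI counts (unique molecular identifiers, which count captured mRNA molecules). Cells had at least 500 detected genes and at most 20% mitochondrial UMIs. They had no UMI of Epcam, Cdh5, Sox10 or Ptprc, which mark epithelium, endothelium, glia and immune cells, and at least 3 UMIs of Col1a2 and Col3a1 together. These cells are called mesenchyme here, and members are those with at least 3 UMIs of Penk and at least 1 UMI of Gal and Calca together. Every member therefore carries Penk, and Gal or Calca in addition. There were 147 members among 3697 E15 mesenchymal cells and 6375 E15 cells past the filters, of 13637 cells past the filters in the whole series. The other 3550 E15 mesenchymal cells are called the rest.

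The study took whole cochleae of wild-type C57BL/6J mice at embryonic day 15 (E15, 2 libraries) and postnatal day 7 (P7, 1 library), dissociated them with papain and thermolysin, sorted the suspension against debris and sequenced the cells with the 10x Genomics 3' v3 kit. The labels give no treatment, and the sources used here do not say how many animals each library pooled. E15 replicate 1 gave 69 members among 1630 mesenchymal cells (4.23%, exact 95% interval 3.31 to 5.33) and E15 replicate 2 gave 78 among 2067 (3.77%, 2.99 to 4.69). The mean share was 4.0% ± 0.325 (SD, n = 2). When the rule was applied after each cell was thinned to 5000 UMIs the shares were 3.13% and 2.18%, with a mean of 2.66%. P7 gave 0 members among 4233 mesenchymal cells, which allows a share of up to 0.0709% at 3 counts, or 0.0871% as the exact 95% upper limit. These intervals and limits cover counting error only. At P7, 19 cells passed the Penk, Gal or Calca and collagen steps but had a UMI of an excluded gene, 18 of them of Cdh5. The 0 at P7 thus depends on that exclusion. The deposited barcodes held 46530036 and 44304364 UMIs in the E15 libraries and 93829443 at P7. The E15 libraries shared 3 cell barcodes, none of them a member. Nothing in the labels says that the E15 libraries came from separate litters, so p-values measure only the spread between these libraries, which may be technical.

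Neuropeptides are made as larger precursors, which convertases in the secretory pathway cut into active peptides. Penk encodes proenkephalin, the source of the enkephalins, which act on opioid receptors. Gal encodes the precursor of galanin, which acts on the Galr receptors. Calca gives calcitonin or, by alternative splicing, the calcitonin gene-related peptide CGRP, whose receptor is formed by Calcrl and Ramp1. The counts are per gene and do not separate these Calca products. In the ear, enkephalins and CGRP are best known from the efferent nerve fibres that reach the cochlea. The mesenchyme around the cochlear duct gives rise to the bony otic capsule, the spiral ligament and other connective tissue of the cochlea. Smoc1, given as a further marker of these cells, encodes a secreted, calcium-binding matrix protein that modulates BMP signalling.

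The 4 genes lie on different chromosomes in GRCm38 (GENCODE vM21). Penk spans chr4:4133531-4138819 on the minus strand and overlaps the gene A830012C17Rik. Gal spans chr19:3409915-3414544 and Calca chr7:114631478-114636357, both on the minus strand. Smoc1 spans chr12:81026808-81186414 on the plus strand, and the microRNA gene Mir3067 lies within these bounds. Because Calca was found more often in Penk cells with Gal than in those without (below), the 250 bases before the start of each are shown, 5' to 3' on the gene's strand, from RefSeq on GRCm38.p6. Gal (chr19:3414545-3414794) and Calca (chr7:114636358-114636607) read:
Gal: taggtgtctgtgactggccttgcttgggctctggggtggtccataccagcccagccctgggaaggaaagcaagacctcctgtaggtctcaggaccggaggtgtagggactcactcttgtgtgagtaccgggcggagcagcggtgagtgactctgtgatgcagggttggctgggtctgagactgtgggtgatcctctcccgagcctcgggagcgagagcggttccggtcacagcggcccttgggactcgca
Calca: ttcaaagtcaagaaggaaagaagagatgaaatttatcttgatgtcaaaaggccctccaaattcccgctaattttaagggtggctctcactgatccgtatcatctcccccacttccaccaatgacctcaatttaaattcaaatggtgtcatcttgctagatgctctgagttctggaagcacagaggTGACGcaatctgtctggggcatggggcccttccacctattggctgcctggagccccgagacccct
The capitals mark a match to TGACG, which starts 65 bases before the Calca start. Both strands were searched for 3 motifs of factors that respond to cyclic AMP or mitogens: the full cyclic AMP response element TGACGTCA, its 5-base part TGACG, which the full element contains, and the AP-1 motif TGANTCA. The Gal window held none of them. Of 32851 promoter windows of this length, 17.8% held TGACG, 1.55% held TGACGTCA and 6.75% held TGANTCA. A match describes letters in a window and is no evidence of binding.

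The genes that chose the members are given as a description, with no test. All levels below are in CPM, a gene's UMIs per 1000000 UMIs summed over the group. Penk stood at 1093 CPM in members of E15 replicate 1 and 892 CPM in those of replicate 2, against 102.5 and 109 CPM in the rest. The median member carried 9 UMIs of Penk in replicate 1 and 7 in replicate 2, with maxima of 145 and 38. Gal stood at 454 and 393 CPM against 1.24 and 4.66 CPM in the rest. It was found in 28 of 69 and 37 of 78 members, and the cell with the most Gal, at 72 and 49 UMIs, held 18.0% and 14.4% of the members' Gal. Calca stood at 302 CPM in both libraries against 9.13 and 14.3 CPM in the rest, and was found in 58 and 62 members. Members held 92.4% and 74.3% of all mesenchymal Gal UMIs and 52.3% and 42.1% of those of Calca, but only 26.1% and 21.9% of those of Penk. Most mesenchymal Penk was thus in cells without Gal and Calca. Smoc1, which the rule did not use but which was named with these cells, stood at 146 and 85.2 CPM against 17.1 and 15.6 CPM. It was found in 50 of 69 and 46 of 78 members.

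**Figure D1:**
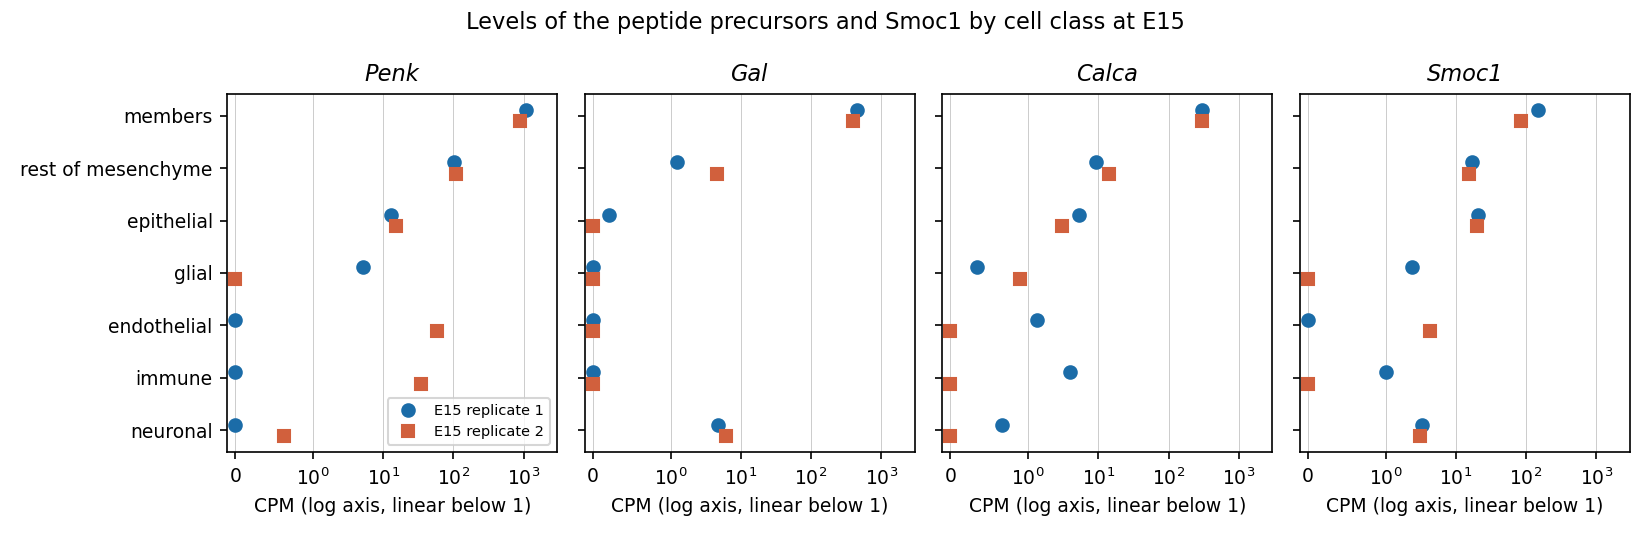
Levels of Penk, Gal, Calca and Smoc1 (CPM, log axis) in members, the rest of the mesenchyme and the other cell classes, each point 1 E15 library. Members lie highest for each gene, while epithelial cells stand at a mean of 20.5 CPM of Smoc1.

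Outside the mesenchyme these genes were low at E15. Penk was next highest in endothelial cells, at 28.7 CPM ± 40.6 (SD, n = 2), a level from 40 UMIs in 2 cells of replicate 2, and stood at 14 ± 1.44 CPM in epithelial cells. Gal was found in neuronal cells at 5.46 ± 1.08 CPM, from 17 UMIs, and at 0 to 1 UMI in the E15 epithelial, endothelial, glial and immune cells. Calca reached 4.24 ± 1.62 CPM in epithelial cells. Smoc1 stood at 20.5 ± 0.356 CPM in epithelial cells, close to the 16.4 ± 1.04 CPM of the rest of the mesenchyme. The order of levels for Gal was members, neuronal cells, then the rest at 2.95 ± 2.42 CPM. Neuronal cells and the rest differed by little more than the SD of the rest.

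Among mesenchymal cells with at least 3 UMIs of Penk, Calca was found more often in cells with Gal than in those without. In replicate 1, Calca was found in 60.7% (exact 95% interval 40.6 to 78.5) of the cells with Gal and in 16.8% (12.3 to 22.1) of those without. In replicate 2 the shares were 56.8% (39.5 to 72.9) and 15.0% (11 to 19.8). These shares are a description: the intervals cover counting error over cells only, and depth was not matched between cells with and without Gal. Of the members, 17 and 21 carried both peptides, 11 and 16 only Gal, and 41 and 41 only Calca. A test of Gal-only against Calca-only members was not run, since fewer than 20 cells a library had Gal alone.

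The share of cells with Gal or Calca did not climb steadily with Penk. In replicate 1, Gal was found in 0.169% of mesenchymal cells without Penk, in 7.78% of those with 3 to 5 UMIs and in 14.9% of those with 20 or more. Replicate 2 gave 0.399%, 13.3% and 12.8%. Calca was found in 4.13% of cells without Penk in replicate 1, 20% at 3 to 5 UMIs, 25% at 10 to 19 and 14.9% at 20 or more. In replicate 2 these were 3.46%, 20%, 23.4% and 17.0%. At 1 to 2 UMIs of Penk, below the rule's threshold, Gal was found in 5.81% and 5.51% of cells and Calca in 7.56% and 13.4%. Both shares were thus low without Penk and already higher at 1 to 2 UMIs. Most cells with much Penk had neither peptide. Below 3 UMIs of Penk, the many cells without Penk included, 0.884% and 1.14% of cells carried Gal and 4.57% and 4.89% carried Calca.

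**Figure D2:**
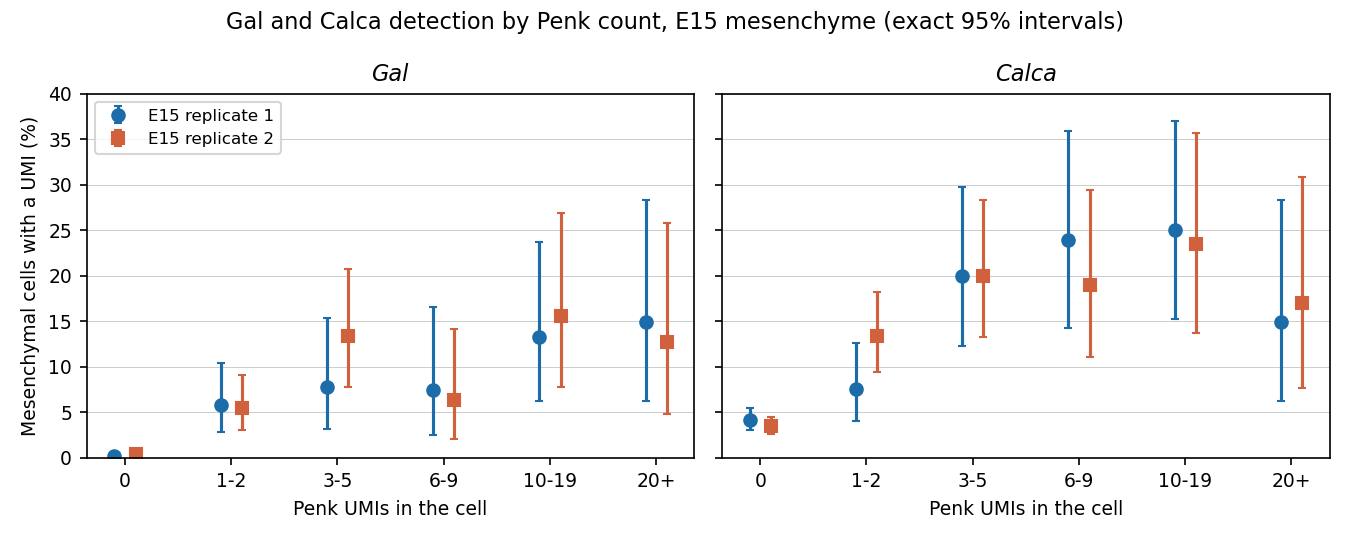
Share of E15 mesenchymal cells with at least 1 UMI of Gal (left) or Calca (right), in percent, by the cell's Penk UMIs, with exact 95% binomial intervals for each library. Both shares are lowest in cells without Penk (0.169% and 0.399% for Gal) and show no steady rise above 3 UMIs.

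Because deeper cells pass thresholds on UMIs more easily, each cell was also thinned to 5000 UMIs, which left out 1 member in each library. Gal was then found in 30.9% and 36.4% of members and in 0.336% and 0.828% of the rest. Calca was found in 64.7% and 62.3% of members and in 2.62% and 3.59% of the rest. Glial cells, which should lack these genes, served as a background of free RNA. They had Gal in 0 of 155 and 0 of 166 thinned cells, with exact upper bounds of 2.35% and 2.20%, and Calca in 0.645% and 0.602%. Other classes varied for Calca. It was found in 2.63% and 2.09% of thinned epithelial cells, near the rest, and in 0% of neuronal cells in both libraries. Immune cells gave 4.76% (2 of 42 cells) and 0%. Whether these shares are free RNA was not tested. Before thinning, Calca was found in 0.629% and 1.11% of glial cells at median depths of 16651 and 10921 UMIs, against 84.1% and 79.5% of members at 11818 and 10217.5 UMIs. The rule required Gal or Calca in members, so the members' shares follow from it and are a description. Members were not deeper than the glial cells, and were shallower than the rest, whose medians were 15535 and 11576 UMIs.

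At the edges of the rule, members with exactly 3 UMIs of Penk (8 and 14 cells) had 141 and 65.6 CPM of Smoc1 and 329 and 223 CPM of Angpt1. Cells with Gal or Calca but 2 UMIs of Penk (9 and 23 cells), just outside, had 117 and 141 CPM of Smoc1 and 166 and 162 CPM of Angpt1. Members with exactly 1 UMI of Gal and Calca together (17 and 20 cells) had 157 and 57.3 CPM of Smoc1 and 399 and 181 CPM of Angpt1. The cells with Penk but neither peptide (203 and 232 cells) had 39.1 and 39.0 CPM of Smoc1 and 94.5 and 73.1 CPM of Angpt1. Cells with 1 Penk UMI too few thus had higher levels of Smoc1 and Angpt1 than those without Gal and Calca. Tenm1 did not follow this in replicate 1: it stood at 118 and 91.8 CPM in members with 3 UMIs of Penk, at 19.5 and 41.4 CPM in cells with 2, and at 27.5 and 17.0 CPM in Penk cells without Gal or Calca. Cemip stood at 94.1 and 45.9 CPM in members with 3 UMIs of Penk and at 127 and 124 CPM in cells with 2. In members with 1 UMI of Gal and Calca it stood at 80.8 and 30.9 CPM. Penk cells without Gal or Calca had 20.1 and 48.6 CPM of Cemip, so in replicate 2 these edge members were not above them.

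Markers of mesenchyme were present in members. The summed level of 6 tested markers, Col1a1, Pdgfra, Prrx1, Twist1, Pou3f4 and Tbx18, was 1217 and 1212 CPM in members against 1243 and 1311 CPM. Within this sum Tbx18 was lower in members in both libraries (135 and 119 CPM against 250.1 and 245 CPM) and Col1a1 was higher, mainly in replicate 2. Defining markers of pericytes and smooth muscle (Rgs5, Acta2, Kcnj8, Myh11) had 0 UMIs in members, and that list of 9 summed to 26.1 and 26.5 CPM against 132 and 125. The 6 epithelial markers summed to 40.8 and 36.8 CPM in members against 20.2 and 20.1 CPM in the rest, with Krt18 at 26.1 and 13.8 CPM against 4.49 and 6.08 CPM and Krt8 at 0 and 1.15 CPM. Immune markers summed to 0 and 2.30 CPM and glial markers to 1.13 and 9.21 CPM. The 10 neuronal markers summed to 60.0 CPM in replicate 1 and 163 CPM in replicate 2, against 72.1 and 71.4 CPM in the rest. Nefl and Nefm made up most of the sum. Elavl3 was higher in members in both libraries (4.53 and 6.91 CPM against 1.65 and 1.18 CPM). In replicate 2 every marker of the list but Neurod1 was higher, among them Tubb3 (15.0 against 5.09 CPM) and Stmn2 (32.2 against 20.1 CPM). In replicate 1 Tubb3, Stmn2, Elavl4 and Snap25 were lower. Neurod1 was at 0 in members and at 0.674 and 0.079 CPM in the rest. Erythroid markers, globins for the most part, were lower in members, at 73.6 and 54.1 CPM against 1665 and 1518 CPM. The part of these differences in the results was not tested.

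A smaller share of members than of the rest carried UMIs of cell cycle genes. After thinning to 5000 UMIs, 32.4% (exact 95% interval 21.5 to 44.8) of members in replicate 1 and 42.9% (31.6 to 54.6) in replicate 2 had at least 2 UMIs of the cell cycle list, against 68.0% and 70.8% of the rest. Penk cells without Gal or Calca lay between, at 44.5% and 50.7%. Without thinning the shares were 66.7% and 71.8% for members and 88.4% and 82.8% for the rest. These are calls per cell on a short list and carry counting error only.

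Members lay together on genes that had no part in choosing them. Principal components were built within each library without the genes of the rule and Smoc1, and the 15 nearest neighbours of each cell were found. Of the neighbours of members, 40% in replicate 1 and 37.1% in replicate 2 were themselves members (mean 38.5% ± 2.05, SD, n = 2), while members made up 4.23% and 3.77% of the mesenchyme. That is 9.45 and 9.83 times their share. For Penk cells without Gal or Calca the share of member neighbours was 9.16% and 8.30%, and for all the rest 2.69% and 2.55%. Only 4 and 9 members had no member among their neighbours. Leaving the cell cycle genes out as well gave a mean of 38.1%.

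**Figure D3:**
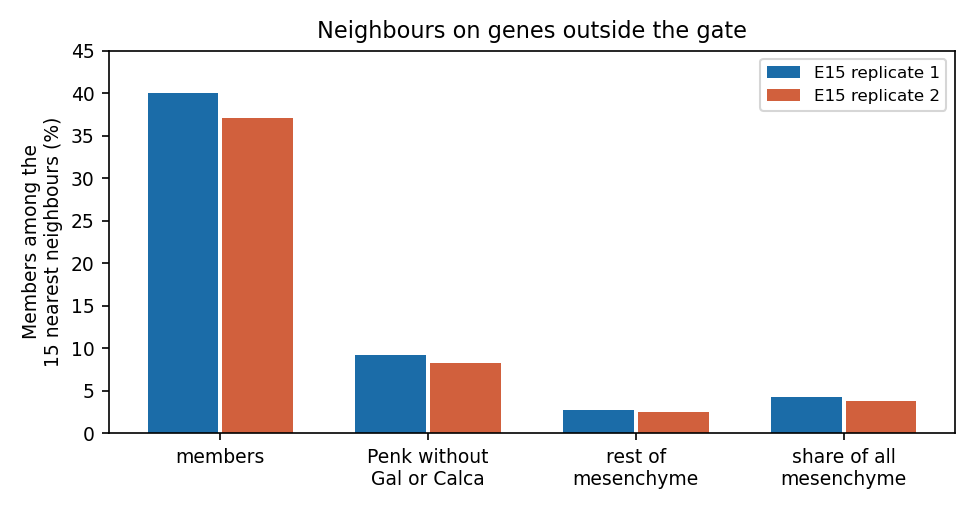
Share of members among the 15 nearest neighbours (percent) of members, of Penk cells without Gal or Calca and of the rest, beside the members' share of the library in the last bars, for each E15 library. Members stand at 40% and 37.1%, above the other groups at 2.55% to 9.16%.

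Clusters built from the same components gave a like picture. In replicate 1, 57 of 69 members (82.6%) fell in a cluster of 189 cells led by Angpt1, Maf, Npy, Tenm1, Igfbp5, Cemip, Tgfb2 and Prss35, of which members made up 30.2%. In replicate 2, 57 of 78 (73.1%) fell in a cluster of 268 cells led by Angpt1, Tenm1, Cemip, Igfbp5, Maf, Npy, Ptgis and Hs3st3b1, of which members made up 21.3%. A further Penk-rich cluster appeared in each library, led by Col1a1, Col18a1 and Itih5, with 200 and 117 cells. In it 55.5% and 79.5% of cells had at least 3 UMIs of Penk, yet it held only 6 members in each library. These leading genes describe the clusters and were not tested. In replicate 1 the mesenchyme by the rule also held a cluster of 150 cells led by Sncg and Tubb3, genes of neurons, with 0 members. The rest is thus not purely mesenchymal there. Neuronal markers summed to a like level in the rest of replicate 2 (71.4 against 72.1 CPM), so that rest may not be pure either. Clusters led by Rgs5 and Acta2, markers of pericytes and smooth muscle, held 18 and 30 cells and 0 members. Without cells that had a UMI of Tubb3, Elavl3, Stmn2 or Snap25, the comparison described next called 614 genes higher and 832 lower.

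Members were then compared with the rest by summing UMIs per library and group and testing with edgeR's quasi-likelihood test, with the library as a block. A gene is called at a Benjamini-Hochberg adjusted p below 0.05 and a fitted fold of at least 1.5. Of 13483 genes tested, 638 (4.73%) were higher and 883 (6.55%) lower in members. Both libraries had the same sign for 636 of the higher and all 883 of the lower genes, and both were past 1.5-fold for 517 and 759. The fit has 1 residual degree of freedom and pools the spread across genes. The members' 69 and 78 cells gave 882714 and 868569 UMIs, so genes at a few CPM rest on a few molecules. The genes of the rule and Smoc1 were not tested.

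The largest rises were of Tenm1, Cemip, Rgs7bp, Prss35 and Angpt1. Tenm1, a teneurin adhesion protein, stood at 105 and 101 CPM in members against 11.2 and 9.24 CPM, a log2 difference of 3.25 ± 0.17 (SE; adjusted p = 5.1e-13, edgeR). Cemip, which takes part in the breakdown of hyaluronan, stood at 131 and 119 CPM against 11.5 and 15.6 CPM (log2 3.12 ± 0.16). Angpt1, the ligand of the endothelial receptor Tek, stood at 351 and 282 CPM against 41.9 and 40.5 CPM (log2 2.85 ± 0.10, adjusted p = 4.8e-16, edgeR). In each of these genes both member values lay above both values of the rest, which follows from naming the largest rises. Igfbp5, which binds insulin-like growth factors, was the most abundant of the named rises, at 2504 and 2057 CPM against 464.5 and 422 CPM (log2 2.27 ± 0.08). Eln, which encodes elastin, stood at 71.4 CPM in both libraries against 10.8 and 8.45 CPM (log2 2.80 ± 0.20). Clu, a secreted chaperone, stood at 114 and 92.1 CPM against 15.3 and 13.7 CPM (log2 2.74 ± 0.16). The transcription factor Maf rose by log2 2.40 ± 0.12. Further named rises were Rgs7bp, which binds regulators of G protein signalling inside the cell, Prss35, Ndnf, Csmd3, Dkk2, Mia and Col12a1, with log2 differences between 2.28 and 2.86.

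**Figure D4:**
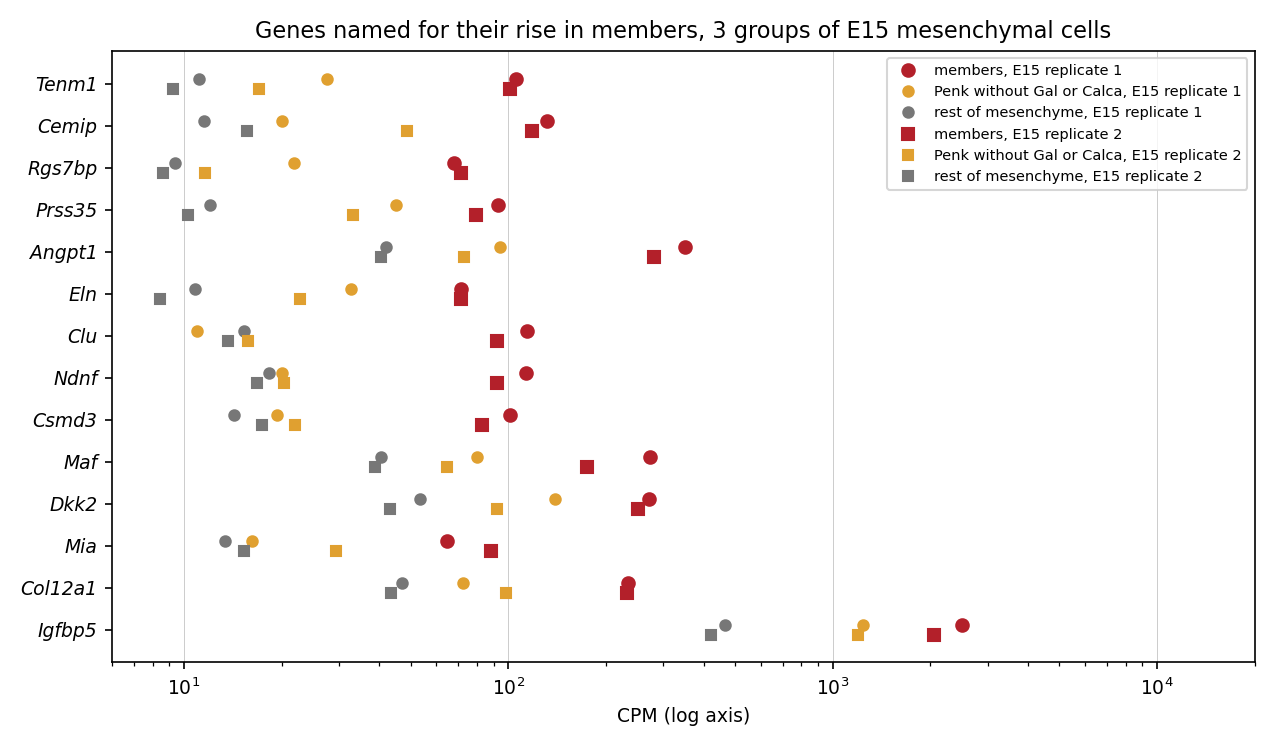
Levels (CPM, log axis) of genes named for the largest rises in members against the rest, in members, in Penk cells without Gal or Calca and in the rest of the E15 mesenchyme (the last group includes the Penk cells), each marker 1 library. Members lie to the right of both other groups in both libraries for each gene shown, and Penk cells without the peptides lie between, except for Clu in replicate 1. The genes were picked for their rise against the rest, so their distance from the rest follows from the choice.

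The named falls included Cenpf, Ube2c, Coch and Car2. Cenpf, which binds kinetochores, stood at 3.4 and 4.61 CPM in members against 207 and 181 CPM. Ube2c, a ubiquitin-conjugating enzyme of mitotic exit, stood at 5.66 and 18.4 CPM against 305 and 285 CPM (log2 -4.71 ± 0.20), with -3.99 in replicate 2 alone. Values of 1 library alone carry no test and add 0.5 CPM to both levels. Of the named falls, these were genes of cell division: Cenpf, Knstrn, Ccnb2, Nusap1, Ube2c, Ccnb1, Tacc3, Cenpa, Cdc20, Cdca3 and Cenpe. Others were Lockd, a noncoding RNA, Coch and Car2. Coch, a matrix protein made in quantity by the fibrocytes of the inner ear, had 0 and 2 UMIs in members and stood at 54.0 and 59.8 CPM in the rest. Car2, a carbonic anhydrase, stood at 11.3 and 5.76 CPM against 239 and 241 CPM (log2 -4.90 ± 0.20).

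Among cells with fewer than 2 UMIs of the cell cycle list, 23 and 22 members remained and 8738 genes could be tested, of which 117 were higher and 94 lower in members. Of the 638 genes higher in the full comparison 529 were tested there, 490 had the same sign and 104 were called again. Of the 883 lower genes 505 were tested, 419 had the same sign and 67 were called again. Smaller groups and fewer tested genes both come with this restriction.

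Gene lists by function are described by their counts and medians. The median log2 difference over all tested genes was -0.03, and the share called was 4.73% higher and 6.55% lower. In a few lists 1 to 3 genes had no UMI in members, and the median was also computed with these genes at a bound of 3 UMIs over both libraries; it is given where it differs.

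**Figure D5:**
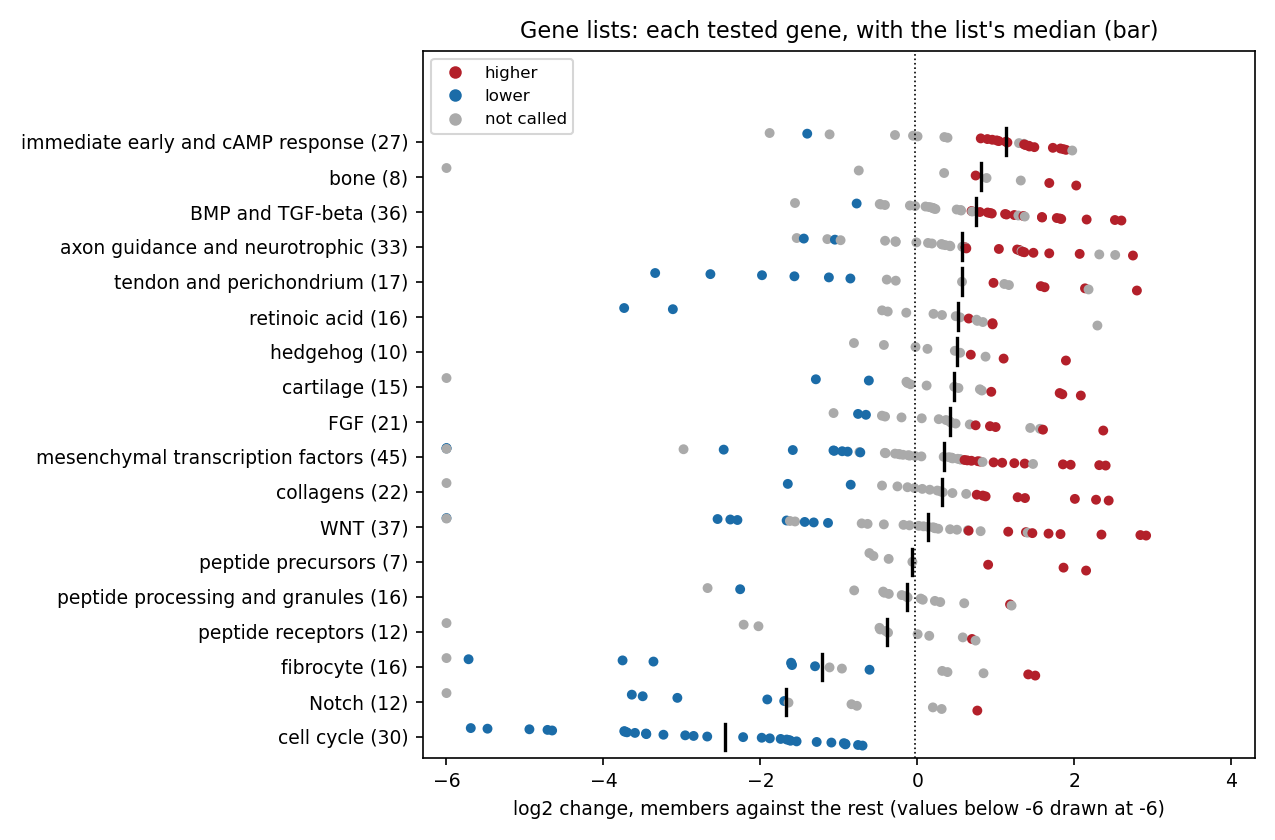
Log2 difference of members against the rest for each tested gene of the lists, with the list's median as a bar, the number tested in parentheses and the median of all genes as a dotted line; values below -6 are drawn at -6. The immediate early list has the highest median (1.13) and the cell cycle list the lowest (-2.45), with all 30 of its genes lower.

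Of the further peptide precursors, 7 were tested, 3 were higher and 0 lower (median -0.06). Npy, the precursor of neuropeptide Y, stood at 113 and 84.0 CPM against 25 and 25.8 CPM (log2 1.86 ± 0.16). Nppc, the precursor of C-type natriuretic peptide, stood at 20.4 and 32.2 CPM against 13.3 and 13.1 CPM (log2 0.90 ± 0.27), with 0.50 in replicate 1 alone. Ecrg4 was called on 3 and 10 UMIs, at 3.4 and 11.5 CPM against 1.42 and 1.66 CPM. Among 16 genes of peptide processing and secretory granules, 1 was higher and 1 lower (median -0.13). The convertase gene Pcsk5 was higher (49.8 and 44.9 CPM against 19 and 20.2 CPM, log2 1.18 ± 0.19). Pam, which encodes the enzyme that amidates the ends of peptides, galanin and CGRP among them, was lower (10.2 and 20.7 CPM against 58.3 and 80.1 CPM, log2 -2.26 ± 0.22).

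The opioid receptor genes Oprm1, Oprd1 and Oprk1 and the galanin receptor genes Galr1, Galr2 and Galr3 had 0 UMIs in members. Oprm1 was found in neuronal cells, at 12 UMIs in 187 cells (3.78 CPM), and the remaining genes had 0 to 3 UMIs in every E15 class. Ogfr, which encodes a further, unrelated receptor of an enkephalin, was found in 40 of 69 and 36 of 78 members, at 78.2 and 58.7 CPM, against 61.8 and 66.3 CPM in the rest. Its mean level ranged from 44.2 to 59.6 CPM in the E15 classes outside the mesenchyme. Calcrl, the CGRP receptor subunit, stood at 74.8 ± 6.35 CPM (SD, n = 2) in endothelial cells and had 2 UMIs in members. Its partner Ramp1 stood at 145 ± 0.228 CPM in immune cells and had 0 UMIs in members, and Ramp2 at 892 ± 168 CPM in endothelial cells against 56.5 ± 3.39 CPM in members. Tek, the receptor of Angpt1, stood at 144 ± 3.13 CPM in endothelial cells and at 0 UMIs in members. Of 12 receptor genes tested between members and the rest, 1 was higher, Ackr3, a scavenger of Cxcl12 and of opioid peptides (34 and 25.3 CPM against 17.2 and 17.1 CPM, log2 0.70 ± 0.23), with 0.47 in replicate 2 alone. The list median was -0.39.

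Of 36 genes of BMP and TGF-beta signalling, 17 were higher and 1 lower (median 0.75). Among ligands, Tgfb2 stood at 267 and 222 CPM against 63.9 and 64.7 CPM (log2 1.83 ± 0.10). Tgfb3 stood at 102 and 80.6 CPM against 19.95 and 18.3 CPM (log2 2.16 ± 0.16). Gdf10, a further ligand of the family, stood at 223 and 222 CPM against 77.5 and 61.7 CPM (log2 1.59 ± 0.11). Among extracellular modulators, Bmper, which binds BMPs, stood at 46.4 and 47.2 CPM against 7.71 and 6.75 CPM (log2 2.60 ± 0.24). Fst, which encodes the activin-binding follistatin, stood at 29.5 and 13.8 CPM against 3.78 and 3.20 CPM (log2 2.52 ± 0.37), with 1.88 in replicate 2 alone. Among target genes, Id2, an inhibitor of basic helix-loop-helix factors, stood at 739 and 687 CPM against 194 and 196 CPM (log2 1.78 ± 0.08). Ligands, binders and targets were thus all among the higher genes. The lower gene was the ligand Bmp7 (27.2 and 26.5 CPM against 44.1 and 41.9 CPM, log2 -0.77 ± 0.21), named after its value was seen.

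Of 37 WNT pathway genes, 9 were higher and 8 lower (median 0.14). Rspo2 and Rspo3, R-spondins that amplify WNT signals, rose by log2 2.92 ± 0.26 and 1.82 ± 0.27. The ligand Wnt11 stood at 45.3 and 54.1 CPM against 6.1 and 6.87 CPM (log2 2.84 ± 0.24), and Dkk2, a secreted modulator of WNT receptors, at 272 and 251 CPM against 53.5 and 43.1 CPM. The lower genes included Wnt6 (2.27 and 2.30 CPM against 12.8 and 12.3 CPM) and the inhibitors Wif1 and Notum, with 4 and 3 UMIs in members. The transcription factor gene Tcf7 had 0 UMIs in members and stood at 7.00 and 6.63 CPM in the rest. The list thus moved in both directions.

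Of 21 FGF pathway genes, 5 were higher and 2 lower (median 0.42). Fgf18 stood at 31.7 and 24.2 CPM against 8.54 and 8.73 CPM (log2 1.6 ± 0.28) and the receptor Fgfr1 at 241 and 203 CPM against 103 and 105 CPM (log2 1.00 ± 0.10). The feedback and target genes split: Spry2 and Etv5 were higher (log2 0.93 ± 0.20 and 0.74 ± 0.20), with 0.52 and 0.39 in replicate 2 alone. Spry4 and Dusp6 were lower (log2 -0.65 ± 0.20 and -0.76 ± 0.19), with -0.42 and -0.49 in replicate 1 alone. Fgf7 was called higher on 6 and 5 UMIs.

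Of 16 genes of retinoic acid signalling, 3 were higher and 2 lower (median 0.52). Aldh1a2, which makes retinoic acid, had 1 UMI in members of each library and stood at 17.4 and 11.3 CPM in the rest, and Stra6, a retinol transporter, was lower as well, with 1 and 0 UMIs. Crabp1, which binds retinoic acid in the cytoplasm, stood at 159 and 212 CPM against 91.9 and 86.4 CPM (log2 0.96 ± 0.12), and was the reverse, -0.27 and not called, among cells with few cell cycle UMIs. The receptors Rarg and Rarb were higher by log2 0.96 ± 0.20 and 0.66 ± 0.12, the latter with 0.48 in replicate 1 alone. Of 10 hedgehog genes, 3 were higher and 0 lower (median 0.51): the co-receptors Boc (log2 1.89 ± 0.25) and Gas1 (239 and 257 CPM against 100.3 and 117 CPM, log2 1.10 ± 0.10), and Gli1, a target (log2 0.68 ± 0.21). Of 12 Notch genes, 1 was higher and 5 lower (median -1.67, or -1.24 with the bound). The receptor Notch1 stood at 9.06 and 9.21 CPM against 28.7 and 26.9 CPM (log2 -1.70 ± 0.30) and the ligand Jag1 at 3.4 and 6.91 CPM against 17.1 and 19.2 CPM (log2 -1.91 ± 0.39). The target Heyl had 0 and 2 UMIs in members. Rfng was the higher gene (log2 0.76 ± 0.25), with 0.51 in replicate 1 alone.

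Immediate early and cyclic AMP response genes, which are induced by many stimuli, were higher in 16 of 27 tested and lower in 1 (median 1.13). Fos stood at 1626 and 1458 CPM against 398 and 396 CPM (log2 1.86 ± 0.08) and Jun at 2097 and 1934 CPM against 703 and 699.7 CPM (log2 1.43 ± 0.07). Nr4a1 stood at 82.7 and 88.7 CPM against 24.1 and 19.2 CPM (log2 1.89 ± 0.17), Btg2 rose by log2 1.73 ± 0.10 and Dusp1 by 1.42 ± 0.12. Atf3 was called higher but uneven, at 63.4 and 24.2 CPM against 14.5 and 14.6 CPM, with log2 0.64 in replicate 2 alone, and stood at log2 -0.61, not called, among cells with few cell cycle UMIs. In those cells 17 genes of the list were tested, 7 were higher and 0 lower, beside 117 and 94 of all 8738 genes.

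Matrix genes split. Of 22 collagen genes, 8 were higher and 2 lower (median 0.31, or 0.39 with the bound). Col12a1, a fibril-associated collagen of tendon and perichondrium, stood at 234.5 and 233 CPM against 46.9 and 43.4 CPM (log2 2.28 ± 0.11). Col8a2 stood at 65.7 and 49.5 CPM against 9.43 and 10.5 CPM (log2 2.44 ± 0.22) and Col14a1 at 17.0 and 20.7 CPM against 3.97 and 4.82 CPM. Col23a1 and Col25a1, collagens with a transmembrane part, rose by log2 1.37 ± 0.13 and 1.28 ± 0.15. The basement membrane collagens Col4a1 and Col4a2 were lower (log2 -1.65 ± 0.11 and -0.85 ± 0.11). Col1a1 was called higher, but stood at 63.4 CPM in replicate 1 and 184 CPM in replicate 2 against 49.8 and 73.4 CPM, and replicate 1 alone gave log2 0.24.

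Of 17 tendon and perichondrium genes, 5 were higher and 6 lower (median 0.57). Besides Eln, Thbs2, Ogn and Mfap4 were higher, the last at 501 and 472 CPM against 144 and 152.1 CPM (log2 1.62 ± 0.09). Dcn and Lum, small leucine-rich proteoglycans, were lower, Dcn at 24.9 and 48.4 CPM against 199 and 227 CPM (log2 -2.64 ± 0.15) and Lum by log2 -1.57 ± 0.17, with -2.15 in replicate 1 alone. Tnc, which encodes tenascin C, was lower by log2 -1.98 ± 0.33, with -1.11 in replicate 2 alone, and Mkx, a tendon transcription factor, had 1 UMI in members of each library. Scx, another tendon factor, stood at 130 and 124 CPM against 76.0 and 85.2 CPM and was below the fold threshold (log2 0.57 ± 0.12). Of 15 cartilage genes, 4 were higher and 2 lower (median 0.47). Sox9, the regulator of cartilage formation, stood at 383 and 333 CPM against 171 and 178 CPM (log2 0.94 ± 0.09) and Sox6 rose by log2 2.08 ± 0.32. Hapln1 rose by log2 1.85 ± 0.35 and Col9a3 was lower by -1.29 ± 0.21, with 1.11 and -0.61 in replicate 2 alone. Col2a1, the main collagen of cartilage, stood at 879 and 1034 CPM against 834 and 814 CPM (adjusted p = 0.40, edgeR). Of 8 bone genes, 3 were higher and 0 lower (median 0.81), among them Spp1 (45.3 and 19.6 CPM against 6.1 and 9.04 CPM, log2 2.02 ± 0.33, with 1.0 in replicate 2 alone) and Mef2c (log2 0.74 ± 0.21).

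Of 45 mesenchymal transcription factors, 13 were higher and 9 lower (median 0.34, or 0.40 with the bound). Besides Maf, rises were found of Eya4 (150 and 140 CPM against 36.3 and 33.8 CPM, log2 1.95 ± 0.13) and Six2 (77.0 and 88.7 CPM against 23.9 and 19.1 CPM, log2 1.86 ± 0.17). Meox2 was lower (11.3 and 16.1 CPM against 70.7 and 71.5 CPM, log2 -2.47 ± 0.22), and Tbx2 and Zic4 had 0 UMIs in members. Pou3f4, the gene of a mesenchymal factor needed for hearing, stood at 447 and 352 CPM against 423 and 459 CPM and was not called. Prrx1 and Twist1 differed from the rest by log2 -0.12 and -0.10 and were not called. Of 16 fibrocyte genes, 2 were higher and 8 lower (median -1.21, or -1.04 with the bound). Besides Coch, the tight junction gene Cldn11 (2 and 3 UMIs in members), Car3, Kcnk2 and Emilin2 were lower. The water channel Aqp1 (37.4 and 26.5 CPM against 9.51 and 11.7 CPM, log2 1.5 ± 0.27) and S100a1 were the higher genes.

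Of 33 axon guidance and neurotrophic genes, 12 were higher and 2 lower (median 0.57). Ntf3, the precursor of neurotrophin 3, on which cochlear neurons depend, stood at 58.9 and 43.8 CPM against 11.6 and 11.3 CPM (log2 2.07 ± 0.21). Sema3e stood at 18.1 and 40.3 CPM against 3.89 and 4.11 CPM (log2 2.75 ± 0.34, with 1.98 in replicate 1 alone), and the chemokine Cxcl12 at 836 and 649 CPM against 284 and 276 CPM (log2 1.31 ± 0.09). The ephrins Efna5 and Efnb2 rose by log2 1.68 ± 0.17 and 1.36 ± 0.11, the receptor Epha3 by 1.34 ± 0.31 and the plexin Plxna2 by 1.48 ± 0.17. Slit2 was lower (log2 -1.45 ± 0.31). All 30 cell cycle genes tested were lower (median -2.45), and 1 of them could be tested among cells with few cell cycle UMIs, where it was not called.

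Among cells with under 2 cell cycle UMIs, where fewer genes and cells could be tested, the lists did not all keep their balance. Over all 8738 genes tested there, 117 were higher and 94 lower. Of 29 BMP and TGF-beta genes 8 were higher and 0 lower (median 0.56), of 25 axon guidance genes 4 and 0 (0.35), of 23 WNT genes 6 and 0 (0.33), and of 10 fibrocyte genes 0 and 5 (-1.25). Of 17 collagen genes 2 were higher and 5 lower (median 0.06), the reverse of the balance among all cells. Of 6 Notch genes 0 were called in either direction (median -0.16), as for 8 retinoic acid genes (0.04). With so few genes called in all, 0 calls in lists this short are not a result about the lists. Of 13 tendon and perichondrium genes 3 were higher and 3 lower (median -0.21). With all cells of at least 3 Penk UMIs as members, 12 Notch genes gave 1 higher and 2 lower (median -0.04), and 22 collagens 14 and 0 (1.08). In that setting 881 of all 13490 genes were higher and 1018 lower.

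Since most Penk was outside the members, members were also set against the Penk cells without Gal or Calca, a comparison added after the data were seen. Of 10161 genes, 313 (3.08%) were higher and 377 (3.71%) lower in members. Clu stood at 114 and 92.1 CPM against 10.9 and 15.8 CPM (log2 2.96 ± 0.22), a gene with like levels in the Penk cells and in the rest. Ndnf, a secreted factor, stood at 113 and 92.1 CPM against 20.1 and 20.3 CPM (log2 2.34 ± 0.20). Tenm1 stood at 105 and 101 CPM against 27.5 and 17.0 CPM (log2 2.20 ± 0.19). The transcription factor Six2 stood at 77.0 and 88.7 CPM against 23.6 and 13.7 CPM (log2 2.13 ± 0.21). Csmd3 and Rgs7bp were the other named rises, and Angpt1 rose by log2 1.91 ± 0.13. Dcn stood at 24.9 and 48.4 CPM against 251 and 365 CPM (log2 -3.09 ± 0.16). Itih5, which binds hyaluronan, stood at 31.7 and 47.2 CPM against 300.1 and 365 CPM (log2 -3.08 ± 0.16). The transcription factor Zic1 stood at 10.2 and 9.21 CPM against 80.4 and 68.1 CPM (log2 -2.93 ± 0.28), and the lipid carrier Apod at 49.8 and 57.6 CPM against 362 and 402 CPM (log2 -2.84 ± 0.15). Ube2c was a further named fall. Member values did not overlap those of the Penk cells for the genes whose values are given, which follows from naming the largest changes. In this fit, and in those against the Osr1 gate and between ages, a gene's own spread had no weight beside the spread shared by all genes.

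Of the matrix lists, the balance of collagens turned with this comparator. Tendon and perichondrium genes gave 3 higher and 6 lower of 15 (median 0.11), and cartilage genes 2 and 2 of 11 (0.21). Of 18 collagen genes, 3 were higher and 9 lower (median -0.59, against 0.00 for all genes), where the comparison with the rest gave 8 and 2. Col1a1 was lower here (log2 -1.73 ± 0.13), as were Col18a1 (-1.88 ± 0.18), Col6a3 (-1.68 ± 0.13) and Col4a1 (-2.07 ± 0.12). Foxd1, a transcription factor gene higher in members than in the rest (545 and 606 CPM against 306 and 313 CPM), was lower than in the Penk cells (log2 -0.82 ± 0.09). Of the other lists, 13 of 31 BMP and TGF-beta genes were higher here and 3 lower (median 0.63), with Id1 and Id2 at log2 1.62 ± 0.09 and 1.64 ± 0.10 and Bmper at 1.95 ± 0.27. Of 21 immediate early genes 13 were higher and 0 lower (median 0.69), with Fos at 1.05 ± 0.08 and Nr4a1 at 0.98 ± 0.18. Of 26 axon guidance genes 9 were higher and 0 lower, with Efna5 at 1.56 ± 0.22. Npy was higher (0.98 ± 0.17). Of 30 cell cycle genes 17 were lower and 0 higher. Some lists differed between the comparisons. Peptide receptors gave 0 higher and 3 lower of 9, where the rest gave 1 and 0, and retinoic acid genes 1 and 2 of 12, where the rest gave 3 and 2. The median of 13 fibrocyte genes was 0.06, with 2 higher and 4 lower. Both comparisons use the same members, so they do not support each other.

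Members were further compared with the E15 mesenchymal groups most like them among 6 other gates, cells in both being left out. The gate with Osr1 and either Aard or Wnt6 (403 and 411 cells) had r = 0.924 to members over log2 levels of genes, and the gate with Pthlh and Gdf10 (153 and 176 cells) r = 0.913; the other gates ranged from 0.848 to 0.895. These correlations are across genes within the libraries and are a description. The gate with the lowest r, Col2a1 and Acan, was also the smallest, at 24 and 27 cells. Cell number was not matched between gates, so the order may depend on it. Against the first, 598 of 11266 genes (5.31%) were higher and 710 (6.3%) lower. Mgp, an inhibitor of calcification, stood at 1250 and 1043 CPM against 138 and 83.8 CPM (log2 3.33 ± 0.08), and Tenm1, Rgs7bp, Angpt1 (log2 2.90 ± 0.12), Mia and Eln were the other named rises. Dab2, an adaptor of endocytosis, was lower (14.1 and 8.22 CPM against 231 and 218 CPM, log2 -4.39 ± 0.21), beside the mitotic genes Cenpf, Nusap1, Ube2c and Cdca3. Against the second, 549 of 10128 genes (5.42%) were higher and 722 (7.13%) lower. Cemip stood at 150.8 and 131 CPM against 8.16 and 4.22 CPM (log2 4.39 ± 0.23; adjusted p = 4.1e-05, edgeR) and Ogn at 135 and 74.7 CPM against 13.6 and 10.7 CPM (log2 3.0 ± 0.21). Prss35, Clu, Csmd3 and Ndnf were the other named rises, and the named falls, led by Cenpf, were all mitotic genes.

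The peptide genes were also set side by side at both ages over all mesenchyme, in cells chosen without them. Since members hold most of the mesenchymal Gal UMIs at E15, the difference in Gal is not separate from the presence of members, and the values are a description. The fit takes its spread from the E15 libraries alone, since P7 is 1 library. Of 15093 genes, 3823 (25.3%) were higher at E15 and 4642 (30.8%) lower. Penk stood at 135 and 136 CPM in the E15 libraries and 8.52 CPM at P7 (log2 3.90 ± 0.12). Gal stood at 15.8 and 17.6 CPM and 0.599 CPM (log2 4.71 ± 0.20), and Calca at 18.6 and 23.9 CPM and 0.560 CPM (log2 5.15 ± 0.19). Smoc1 differed less, at 21.4 and 18.1 CPM and 11.9 CPM (log2 0.64 ± 0.11) and E15 replicate 2 alone gave 0.49. With 0.5 CPM added to both levels, the E15 libraries taken alone gave 3.83 and 3.98 for Gal and 4.12 and 4.46 for Calca. At P7, 34 mesenchymal cells had at least 3 UMIs of Penk and none of them carried Gal or Calca; with 34 cells the exact upper bound on either share is 10.3%. P7 is 1 library, counted with another software version and gene annotation, so age cannot be told apart from library and processing.

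Lastly, the genes whose levels ran most closely with Penk were sought across all E15 mesenchymal cells, thinned to 5000 UMIs (1556 and 1888 cells). Only tested genes with at least 50 CPM in members could enter. Genes lower in members, such as Itih5 (31.7 and 47.2 CPM), were thus left out whatever their r. Pearson r, the mean of both libraries, was 0.459 for Foxd1, 0.450 for Cxcl12, 0.429 for Col1a1, 0.421 for Foxp1, 0.417 for Mfap4, 0.398 for Nrp2 and 0.397 for Igfbp5, followed by Malat1 (0.353), Gdf10 (0.326) and Cdh11 (0.314). Gal (0.246), Smoc1 (0.208) and Calca (0.202) ran less closely with Penk than these. Cells of a library share its depth and free RNA, and counts per cell are sparse, so these values only describe the order. Of the 10 genes, Foxd1 and Col1a1 were lower in members than in the Penk cells without Gal or Calca, while Foxd1, Cxcl12, Col1a1, Mfap4, Igfbp5 and Gdf10 were higher in members than in the rest. Members were chosen on Penk, and these genes on their r with Penk and their level in members. Their rises against the rest thus follow in part from the choice.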

How the data were processed

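Single-cell RNA sequencing covered 2 E15 libraries and 1 P7 library. The deposited values are raw UMI counts per gene and barcode, made by the authors with Cell Ranger 6.1.2 and GRCm38/mm10 per the submitters' processing notes; per the file headers the version was 6.1.2 for E15 and 3.1.0 for P7. The rule was applied to these counts (Python 3.11.15, scanpy 1.11.5). No doublets were removed in the main analysis: the Scrublet method in scanpy marked only 5 and 4 E15 cells by itself, and removing the 84 and 121 highest scores took out 0 and 1 members. UMIs were summed per library and group and tested with edgeR 4.0.16 (limma 3.58.1, R 4.3.3; TMM, filterByExpr, library as block), tested first on simulated data; DESeq2 1.42.0 was an alternative. Same-numbered groups come from the same library, which pairs them. Standard errors follow from F, as the log2 change over its root. Neighbours used 2000 variable genes and 30 components on counts scaled to 10000 per cell. The members and lists were chosen with earlier results of these data known. Named genes are up to 15 called rises and falls (6 in other fits) with the largest change and at least 50 CPM in both libraries, plus at most 8 called genes a list; mitochondrial, ribosomal, globin, unnamed and sex-linked genes were left out, the last taken as Xist, Tsix and Y-linked genes, so that X-linked genes such as Tenm1 stayed. Some items are not reported here.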

Additional observations from a re-analysis of the deposited data

How the results depend on the processing

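The replicate block pairs members and comparison cells of 1 library; without it 640 genes were higher and 834 lower than the rest, 481 and 558 than the Osr1 gate, 660 and 786 than the Pthlh and Gdf10 gate, and 247 and 276 than Penk cells without Gal or Calca. DESeq2 called fewer genes: 315 higher and 396 lower than the rest, all called with the same sign by edgeR, 190 and 207 than the Osr1 gate, 130 and 231 than the Pthlh and Gdf10 gate, and 61 and 58 than the Penk cells. A fold of at least 2 left 378 higher genes. Cells with under 2 cell cycle UMIs gave 117 higher and 94 lower genes, with Crabp1 at log2 -0.27, Atf3 at -0.61 and Ackr3 at -0.00091. Without a filter on low counts, 1102 of 16459 genes were lower than in the Pthlh and Gdf10 gate. With all cells of at least 3 Penk UMIs as members, Col4a1 (0.16), Col4a2 (0.21), Mef2c (-0.18), Dcn (0.12), Lum (0.86), Cldn11 (0.12) and Zic4 (1.70) changed direction. Applying the rule after thinning gave a share of 2.66%, and 30 neighbours gave 35.1%. The cause was not tested. Leaving out a library left 1 pair, for which log2 differences but no test or count of calls could be had. Of 2099 values of 165 named gene results under all alternatives, 1933 were counted as unchanged, 5 came to be called and 10 changed direction. The others kept their direction but were no longer called or, for a library alone, fell below the fold threshold. Changes of direction were counted only for genes called in the main fits, so genes not called may have changed sign uncounted. Ogfr, not called, stood at log2 0.23 in replicate 1 alone and -0.25 in replicate 2 alone. Genes at a few UMIs in members limit what can be said of falls.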

Other observations

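Penk was also found outside the mesenchyme at P7: endothelial cells, defined by Cdh5, held 1646 UMIs of Penk (218 CPM), which were found in 74 of 518 cells (14.3%), against 8.51 CPM in P7 mesenchyme and 28.7 ± 40.6 CPM (SD, n = 2) in E15 endothelial cells, where 40 UMIs lay in 2 cells. The Penk and Gal or Calca steps applied to cells outside the mesenchyme found 19 cells at P7, of which 18 had Cdh5, and 3 and 9 in the E15 libraries, of which 3 and 8 had Epcam. All 19 P7 cells met the collagen step, so only a UMI of an excluded gene kept them out of the mesenchyme. P7 is 1 library, so these levels have no replicate.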
